A study of Bos taurus with 16 samples.

Results

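The modern pregnancy-associated glycoproteins (PAGs) examined here were PAG3, PAG4, PAG5, PAG6, PAG7, PAG9, PAG15, PAG17, PAG18 and PAG21. Their probes were found by gene name, or by the symbol in brackets in the probe's description, in the array's own annotation. The 10 genes had 13 of the 21475 probes on the array, with 2 probes for PAG7 and 3 for PAG17. Expression was measured in endometrial and blood CD14+ cells of 4 pregnant cows on 8 Agilent bovine arrays with 2 colours. Every array carried both tissues of 1 animal, 1 tissue in each dye, and each animal was hybridized on 2 arrays, so that 16 samples represented 4 animals.

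CD14 is a surface receptor of monocytes and macrophages, and the cells were obtained by 2 rounds of sorting on it. The endometrial CD14+ cells came from the tissue between placentomes of the uterine horn that held the fetus, dispersed with enzymes, and were 90 to 95% pure by the labels. The blood CD14+ cells came from mononuclear cells of the same cows and were 98 to 99% pure. The cows were at day 164 (animal 1), 239 (animal 2), 242 (animal 3) and 248 (animal 4) of pregnancy when they were slaughtered. No treatment is given for them in the labels, which do not state their age either, and no nonpregnant cow was included. Each stage was 1 animal, so that stage and animal cannot be told apart. RNA was amplified before labeling.

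PAGs belong to the aspartic proteinase family, and many of them are thought to bind peptides rather than to cleave them. They are secreted by the trophoblast of ruminants. The modern PAGs are products of binucleate trophoblast cells, which migrate to and fuse with the uterine epithelium and release their granules on the maternal side. PAGs then circulate in the maternal blood, where they are measured to diagnose pregnancy. Individual functions of the family members are not established.

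The probes were 60 bases long, with 38.3 to 53.3% G and C. None of the 21475 probes repeated the sequence of a member probe exactly, but several shared a run of bases with the probe of another PAG. The longest run shared with another PAG probe was 6 to 16 bases in the 13 probes. The probes of PAG15 and PAG21 are shown because their longest shared run, in capitals, was with each other. It was 11 bases long, and 44 of 53 positions were identical in their local alignment.
PAG15: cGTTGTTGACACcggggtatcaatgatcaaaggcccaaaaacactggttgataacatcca
PAG21: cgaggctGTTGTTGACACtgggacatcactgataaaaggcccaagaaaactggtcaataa
Another pair is shown because these 2 PAG17 probes gave weak or no signal, as described below. The capitals mark the run shared with the probe of PAG16 in A_73_101977, 15 bases, and with that of PAG1B in A_73_103951, 16 bases.
PAG17 A_73_101977: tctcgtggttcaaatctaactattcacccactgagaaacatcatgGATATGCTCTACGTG
PAG17 A_73_103951: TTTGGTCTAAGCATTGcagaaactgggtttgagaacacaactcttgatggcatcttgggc
The first 30 bases follow for the 2 probes called higher in endometrium and for the brightest PAG17 probe. Capitals mark the run of 15 bases that the PAG7 probe A_73_111071 shared with the probe of PAG8, an ancient PAG.
PAG7 A_73_111071: cactgctgccaGGATGCTGGTGAACTgtat
PAG4 A_73_117358: gaaaggacagaattggcctggccaccaagg
PAG17 A_73_101490: tggtccagaatcaagtaaggcctctcctaa
Probes of the same gene did not share more than 6 bases in a row. They were not aligned to a transcript, so that their positions in it are not known here. The array's files place the 13 probes on no chromosome, and their exons were not determined here.

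In RefSeq's list of genes for the assembly ARS-UCD2.0, the 10 genes stood among 20 PAG genes on a single chromosome. The table held the accession of 9 of the 10, and PAG3 was matched by symbol. PAG5, PAG18, PAG7, PAG15 and PAG4 followed each other in this order with no other named PAG between them, and so did PAG17, PAG9, PAG3 and PAG6. PAG21 lay apart from both runs, between PAG20 and PAG1B.

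Channels varied in brightness, with median intensities of 48 to 402.75 over local backgrounds of 13 to 49.5, and the scanner software marked 65.2 to 82.9% of a channel's spots as well above background. Saturation did not occur. Before any ratio was taken, the scanner files were compared with the authors' table of normalized values. All 16 columns of that table matched the scan filed under the animal's second hybridization where the first was labelled, or the reverse, and the scans were read in that way (read as attached, the ratios of animals 1, 2 and 4 change sign). Levels are given as log2 of the intensity after background correction, loess within arrays and quantile normalization over channels. A ratio is the log2 level in endometrium minus that in blood of the same animal. Levels of different probes are not comparable, since each probe hybridizes with its own efficiency.

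The transcript of the sorted marker was much lower in animals 2 to 4 than in animal 1. The purities given above are of the CD14 protein by flow cytometry, and RNA and protein can differ. CD14 had log2 levels of 12.17, 6.41, 8.14 and 6.82 in endometrium and of 14.24, 6.30, 7.63 and 6.69 in blood in animals 1 to 4. Animal 1 was thus high in both tissues. In animals 2 to 4, 14.3 to 49.8% of the probes tested had a lower level than CD14 in the same cells, although its spots were well above background in all 16 channels. That share also depends on how well each probe hybridizes. The 10 monocyte and macrophage markers on the array summed to an intensity of 99440 in the blood cells of animal 1 and of 3158 to 5647 in those of the others, and to 115824 and 14067 to 39468 in endometrium. The 8 lymphocyte markers ran the other way in blood, with 7632 in animal 1 and 33871 to 45363 in the others, and summed to 19806 in animal 1 and 26551 to 67174 in the others in endometrium. Values without animal 1 are therefore given with the PAG results, as are those of animal 1 alone, which allow no test. What the composition of these cells contributed to the PAG ratios was not tested.

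PAG4, and PAG7 by 1 of its 2 probes, were differentially expressed. Signal was 9.02-fold higher in endometrial than in blood CD14+ cells for PAG4 and 14.3-fold higher for that probe of PAG7, and this direction was seen in 4 of 4 animals for both. These folds depend on the processing, since an offset of 50 was added to every intensity and lowers the folds of dim signals. By the authors' normalized values they were 36.4-fold for PAG4 and 24.8-fold for that probe of PAG7. Probes are called here where limma gave more than a 2-fold change with an adjusted p no higher than 0.05. Those above background in 4 or more channels of either tissue were tested. Of the 13 probes, 12 were tested, 2 were called higher in endometrium and 0 lower. Over all 16654 probes tested, 0.0661% were called higher in endometrium (11 probes) and 0% higher in blood. With the p left unadjusted and the same fold, 851 of all probes tested were higher in blood and 5.27% higher in endometrium, and 9 of the 12 probes were higher in endometrium and 0 lower. The ratio was above 0 in 4 of 4 animals for 11 of the 12 probes and for 10.2% of all probes tested. The levels of the tissues did not overlap for 11 of the 12, with endometrium higher, and for 2.41% of all probes tested. However, 8 of the 12 had no blood channel well above background and passed the filter by their endometrial channels only. For these 8 the filter itself favoured a higher endometrial level, so that the counts of direction and overlap are partly set by it. The 2 probes called were above background in both tissues. The median log2 ratio was 1.60 over the 12 probes, or 1.56 with the probes at background in blood set to the lower bounds given below, and -0.02 over all probes tested. It was 1.62 without animal 1 and 1.36 in animal 1 alone.

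The PAG4 probe had a log2 level in endometrium of 9.58, 9.64, 10.13 and 9.48 in animals 1 to 4, with a mean of 9.71 ± 0.29 (SD, n = 4). In blood it was 6.59, 6.42, 6.86 and 6.26, with a mean of 6.53 ± 0.26. The lowest endometrial level was 2.61 above the highest blood level. Its log2 ratios were 2.99, 3.22, 3.27 and 3.22 in animals 1 to 4. These 4 values lay close together, with an SD of 0.12, and 3.19% of the probes tested had a smaller SD between animals. This closeness depends on the processing as well. By the authors' normalized values the log2 ratios were 4.45, 5.42, 5.70 and 5.18, with an SD of 0.54. The log2 ratio was 3.17 with an SE of 0.20 and a 95% confidence interval of 2.67 to 3.68 (adjusted p = 0.0273, limma). Every one of the 8 blood channels measured PAG4 above background, as did the 8 endometrial ones.

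The brighter PAG7 probe, A_73_111071, had a log2 level in endometrium of 11.32, 11.48, 11.78 and 10.59 in animals 1 to 4. In blood it was 7.56, 7.46, 7.90 and 6.89. Animal 3 was highest and animal 4 lowest in both tissues, and the tissues did not overlap. Its log2 ratios were 3.76, 4.02, 3.87 and 3.70, and the 2 arrays of an animal differed by at most 0.27. The log2 ratio of 3.84, with an SE of 0.20 and a 95% confidence interval of 3.33 to 4.35, was the highest among the member probes measured above background in both tissues (adjusted p = 0.0242, limma). By the authors' normalized values PAG4 was the higher of the 2, with a log2 ratio of 5.19 against 4.63 for this probe. With any 1 of animals 1, 2, 3 and 4 left out, neither probe was called in limma, with log2 ratios of 3.14 to 3.23 and adjusted p of 0.121 to 0.195 for PAG4, and log2 ratios of 3.78 to 3.88 and adjusted p of 0.0961 to 0.195 for PAG7. Without animal 1, the log2 ratios were 3.23 for PAG4 and 3.86 for PAG7, each with an adjusted p of 0.195. In fits of 1 array per animal, taken by the technical replicate (1 or 2) under which the scan was filed, both probes were called in each.

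**Figure D1:**
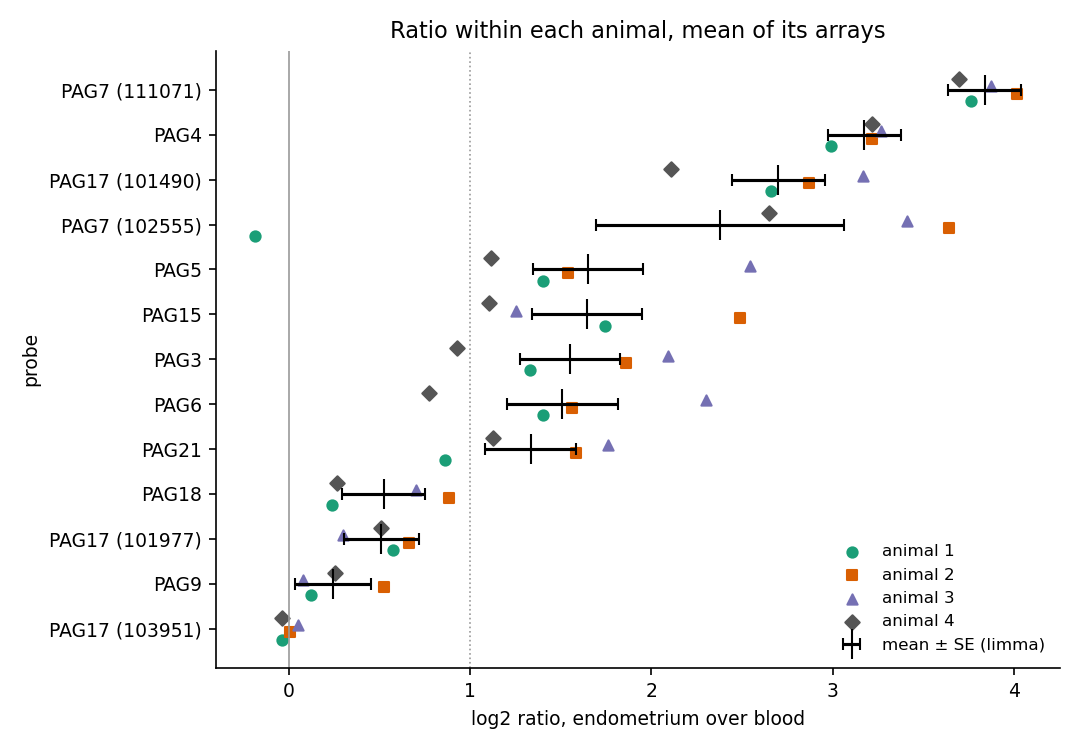
Log2 ratio of endometrium over blood (x axis) for each of the 13 probes (y axis), with a symbol for each animal and a cross bar for the mean and its SE from limma (the last probe was not tested). The vertical lines stand at a ratio of 0 and at a fold change of 2; PAG4 and PAG7 A_73_111071 have the 4 animals closest together among the probes above a log2 ratio of 1, and animal 1 stands apart for PAG7 A_73_102555.

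The other PAG7 probe, A_73_102555, differed from the first most in animal 1. Its log2 level in endometrium was 10.22, 10.51, 10.79 and 9.25 in animals 1 to 4, and in blood it was 10.41, 6.87, 7.38 and 6.60. Blood cells of animal 1 were thus at the level of its endometrial cells, while in the others blood was lower by 2.65 to 3.64. The high blood signal of animal 1 was present on both of its arrays and in both dyes. The median intensity of the spots was 1070.5 on one array and 2021.5 on the other, over backgrounds of 13.5 and 44.5. On the same arrays A_73_111071 had blood intensities of 117.75 and 227.5. With the log2 ratios -0.19, 3.64, 3.41 and 2.65, this probe had a mean of 2.38 with an SE of 0.68, and it was not called (adjusted p = 0.263). Without animal 1 its log2 ratio was 3.23, and it was not called either (adjusted p = 0.372, limma). Of all probes tested, 95.4% had a smaller SD between animals.

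**Figure D2:**
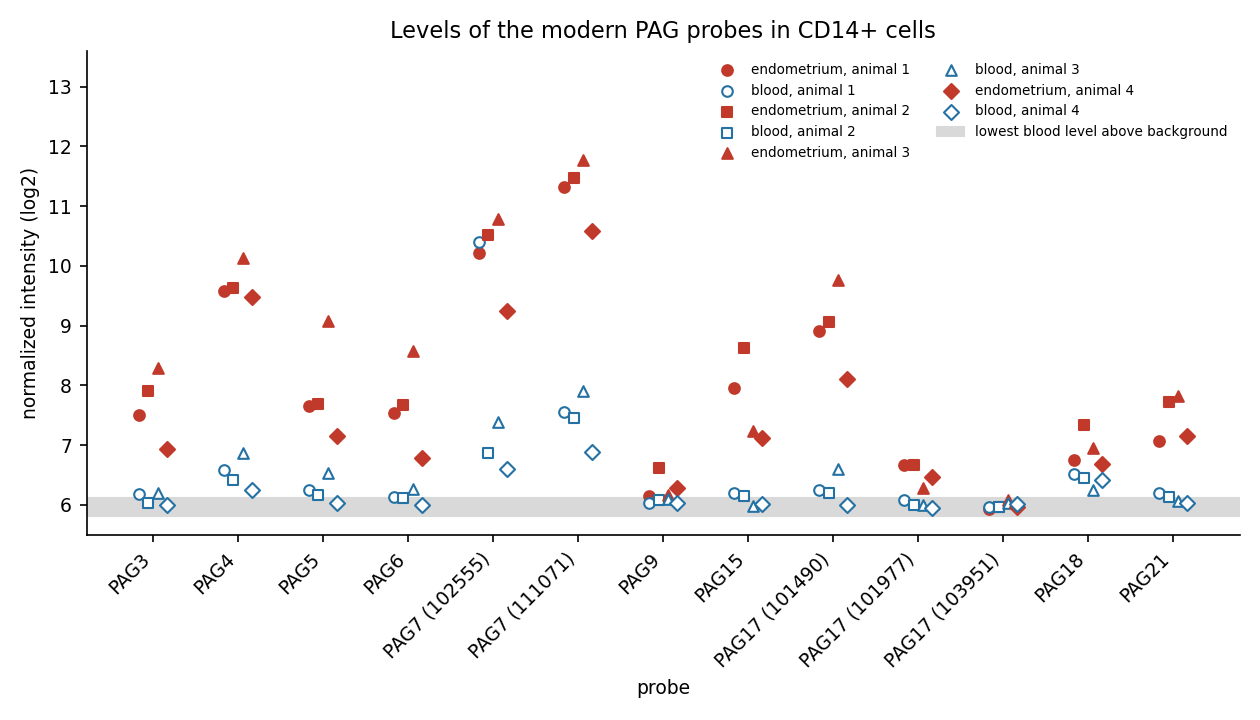
Normalized log2 intensity (y axis) of each of the 13 probes (x axis) in endometrial (filled) and blood (open) CD14+ cells, with a symbol for each animal. The grey band is the range, over the 8 arrays, of the lowest blood level of a probe well above background; the blood cells of animal 1 are at 10.41 for PAG7 A_73_102555, and the 9 probes not well above background in blood lie near the band.

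PAG17 was read by 3 probes that gave different values. A_73_101490 was the brightest, with log2 levels in endometrium of 8.91, 9.06, 9.76 and 8.10 in animals 1 to 4. In blood the levels were 6.25, 6.19, 6.59 and 5.99, where no channel was well above background. The log2 ratios were 2.66, 2.87, 3.17 and 2.11, with a mean of 2.70 and an SE of 0.26. It was not called (adjusted p = 0.0730). A_73_101977 had levels of 6.66, 6.67, 6.29 and 6.46 in endometrium and of 6.08, 6.001, 5.99 and 5.95 in blood. The tissues did not overlap, and the ratios were 0.58, 0.66, 0.30 and 0.51 (adjusted p = 0.329). A_73_103951 had none of its 16 channels well above background and was not tested. Its levels lay between 5.93 and 6.08 in both tissues.

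PAG5 and PAG6 followed the same order of animals as the brightest PAG17 probe in the endometrium. PAG5 had log2 levels of 7.66, 7.70, 9.08 and 7.15 in endometrium and of 6.26, 6.16, 6.53 and 6.04 in blood. PAG6 had levels of 7.53, 7.68, 8.57 and 6.78 in endometrium and of 6.13, 6.12, 6.27 and 6.003 in blood. Both were highest in animal 3 and lowest in animal 4, and neither overlapped between tissues. The mean log2 ratio was 1.65 with an SE of 0.30 for PAG5 (adjusted p = 0.242) and 1.51 with an SE of 0.30 for PAG6 (adjusted p = 0.262).

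PAG3 and PAG21 had the same high animal and narrower ranges. The levels of PAG3 were 7.51, 7.90, 8.29 and 6.93 in endometrium and 6.18, 6.04, 6.19 and 6.005 in blood, a mean log2 ratio of 1.55 with an SE of 0.28 (adjusted p = 0.242). The levels of PAG21 were 7.06, 7.72, 7.82 and 7.15 in endometrium and 6.20, 6.14, 6.06 and 6.03 in blood, a mean log2 ratio of 1.33 with an SE of 0.25 (adjusted p = 0.245). The endometrium of animal 3 was highest for both, and the lowest was animal 4 for PAG3 and animal 1 for PAG21.

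PAG15 departed from this order, and its probe shared bases with that of PAG21, as shown above. Its levels in endometrium were 7.95, 8.63, 7.24 and 7.11 in animals 1 to 4, so that animal 2 was highest and animal 3 near the lowest. In blood they were 6.21, 6.14, 5.98 and 6.01. The log2 ratios of 1.74, 2.49, 1.26 and 1.10 gave a mean of 1.65 with an SE of 0.30 (adjusted p = 0.242). PAG21 had a lower ratio than PAG15 in animals 1 and 2 and a higher one in animals 3 and 4; the difference between the genes was not tested.

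PAG9 and PAG18 had confidence intervals that included a ratio of 0. PAG9 had levels of 6.16, 6.61, 6.17 and 6.28 in endometrium and of 6.03, 6.08, 6.09 and 6.02 in blood, with 6 of 8 endometrial channels above background. Its mean log2 ratio was 0.25, with a 95% confidence interval of -0.28 to 0.77 (adjusted p = 0.605). PAG18 had levels of 6.75, 7.33, 6.95 and 6.69 in endometrium and of 6.51, 6.45, 6.25 and 6.42 in blood, and each channel of both tissues was above background. Its mean log2 ratio was 0.52, with an interval of -0.05 to 1.10 (adjusted p = 0.354). Both were highest in the endometrium of animal 2.

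For 8 of the 12 tested probes none of the blood channels was well above background, so that only a lower bound of the mean difference could be had. The bound sets the endometrial mean against the higher of the blood level and the lowest blood signal well above background on each array. It was taken with 2 between-array steps, Aquantile and the one of the fit, and the lower of both values is given. The bound is a point estimate that allows for the background in blood and not for the spread between animals. A smaller difference is therefore not excluded by it. Adjusted p and confidence intervals given with the bounds are those of the log2 ratio in limma. The bound was 6.43-fold for PAG17 A_73_101490 (adjusted p = 0.0730), with a confidence interval of the log2 ratio of 2.06 to 3.35. It was 3.13-fold for PAG5 (adjusted p = 0.242), 3.03-fold for PAG15 (adjusted p = 0.242) and 2.86-fold for PAG3 (adjusted p = 0.242). For PAG6 it was 2.82-fold (adjusted p = 0.262) and for PAG21 2.49-fold (adjusted p = 0.245). The confidence intervals of these log2 ratios began at 0.89 for PAG5, 0.89 for PAG15, 0.86 for PAG3, 0.74 for PAG6 and 0.71 for PAG21. The bound was 1.38-fold for PAG17 A_73_101977 (adjusted p = 0.329) and 1.18-fold for PAG9 (adjusted p = 0.605). The confidence intervals of these log2 ratios, -0.001 to 1.03 and -0.28 to 0.77, included no difference. The bounds are open to dye bias in animal 3, whose dyes were not swapped. The 4 probes above background in all blood channels were those of PAG4, PAG7 and PAG18.

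The animals were ordered alike by many of the members. Among the 12 tested probes, the endometrial level was highest in animal 3 for 8 and in animal 2 for 4, and lowest in animal 4 for 9. The median log2 ratio of the 12 probes was 1.36, 1.72, 2.20 and 1.11 in animals 1 to 4. The dyes of animal 3 were not swapped, so that dye and animal cannot be told apart in its levels and ratios. Besides those of PAG4 and PAG7 given above, the log2 ratios without animal 1 were 1.63 for PAG3, 1.73 for PAG5 and 1.55 for PAG6. They were 0.29 for PAG9, 1.62 for PAG15, 0.62 for PAG18 and 1.49 for PAG21. For PAG17 they were 2.71 for A_73_101490 and 0.49 for A_73_101977. The SD of the ratio over all probes tested was 1.10, 1.00, 1.49 and 0.71 in the same animals, so that the animal with the highest median for the PAGs was also the one with the widest spread of all probes. Averaged over the 12 probes, the level was 8.11, 8.41, 8.57 and 7.66 in endometrium and 6.70, 6.34, 6.51 and 6.19 in blood. In preparations of many cells, a larger share of cells with a transcript and more transcript per cell cannot be told apart.

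The ratios can also be read along the order of the genes given above. In the run from PAG5 to PAG4, the mean log2 ratios were 1.65 for PAG5, 0.52 for PAG18, 3.84 and 2.38 for the probes of PAG7, 1.65 for PAG15 and 3.17 for PAG4. In the other run, they were 2.70 and 0.51 for the tested probes of PAG17, 0.25 for PAG9, 1.55 for PAG3 and 1.51 for PAG6. All those of the other run, and those of PAG5 and PAG15, had blood at background. By the authors' normalized values the order of the probes differed. In the run from PAG5 to PAG4 the log2 ratios were then 5.27, 1.67, 4.63 and 3.33 (PAG7), 5.68 and 5.19. In the other run they were 6.88 and 3.90 (PAG17), 1.85, 6.17 and 6.16. A contrast between the runs therefore cannot be read from these ratios, and the difference between neighbours was not tested.

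The rest of the PAG family was represented by 4 other modern PAGs and 5 ancient PAGs, the latter being transcribed more widely in the trophoblast. None of the 8 of these probes that were tested was called in limma, and at an unadjusted p 2 of them, PAG1B and PAG10, were higher in endometrium. Of the modern ones, PAG1B had log2 ratios of 1.49, 2.01, 2.68 and 3.07 in animals 1 to 4 (adjusted p = 0.167), and PAG16, PAG19 and PAG20 had mean log2 ratios of 0.42, 0.42 and 0.26. The median of the 4 was 0.42. Of the ancient ones, PAG10 had log2 ratios of 4.97, 3.18, 5.64 and 4.77, higher than PAG7 A_73_111071 in 3 of 4 animals, but with a larger spread (adjusted p = 0.0702). The median of the 4 ancient PAGs tested was 0.67, and PAG2 had none of its channels well above background.

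Of the hormones of binucleate cells, 3 of 8 probes were called higher in the endometrial cells. Placental lactogen and the prolactin-related proteins had 10 of 12 listed names on the array, read by 8 probes, since CSH1 and CSH2 shared a probe, as did PRP4 and PRP5. Each of the 8 was above its blood level in all 4 animals and 6 passed the unadjusted threshold, with a median log2 ratio of 2.28. The called probes were CSH1, placental lactogen, 3.93 ± 0.24 on the log2 scale (SE; adjusted p = 0.0263), and the prolactin-related proteins PRP1, 4.22 ± 0.21 (adjusted p = 0.0242), and PRP6, 4.36 ± 0.24 (adjusted p = 0.0242). For CSH1 the log2 ratios were 3.82, 4.18, 4.28 and 3.46 in animals 1 to 4. Other trophoblast genes, such as regulators and steroidogenic enzymes, had 10 tested probes of 17 on the array, with 0 called and a median of 0.12. Of these, 0 also passed the unadjusted p with the fold change.

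**Figure D3:**
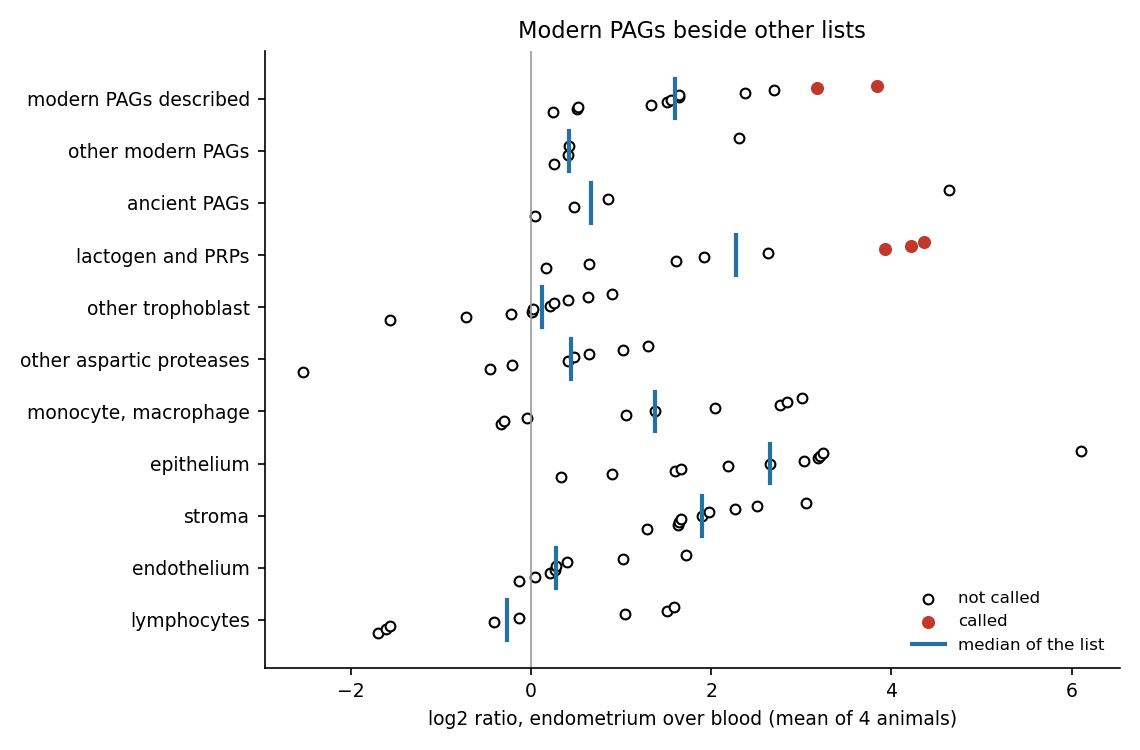
Mean log2 ratio of endometrium over blood (x axis) of each tested probe in lists of genes (y axis), filled where called, with the median of the list as a vertical bar. The called probes are 2 of modern PAGs and 3 of placental lactogen and prolactin-related proteins.

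Markers of epithelium, stroma, endothelium and leukocytes, which an endometrial preparation could hold, were read as well. Whether trophoblast carries those of epithelium was not tested. Of 12 epithelial markers listed 11 were on the array and tested, and 10 exceeded their blood level in every animal. Their median log2 ratio was 2.65, with 0 called in limma and 8 higher in endometrium at an unadjusted p. Their summed intensity was 12924 to 113742 in endometrium and 1319 to 3495 in blood. Among them was SERPINA14, which the authors describe as a product of uterine epithelium. Its log2 ratio of 6.10 was the largest of all probes tested (adjusted p = 0.0590, limma). The 9 stromal markers on the array had a median of 1.90, with 0 called and 3 higher at an unadjusted p, and their summed intensity was 696 to 103846 in endometrium and 667 to 2109 in blood, with the highest ratios in animal 1. Endothelial and lymphocyte markers, 8 of each, had medians of 0.28 and -0.27 and 0 called, and at an unadjusted p 1 endothelial marker was higher, 3 lymphocyte markers were higher and 1 was lower. Summed intensities of the 8 probes of binucleate hormones were 4893 to 17166 in endometrium and 595 to 1092 in blood. No epithelial or stromal marker was below background in all channels of either tissue. Of the monocyte and macrophage markers, whose levels are given above, 9 were tested, with a median log2 ratio of 1.37, 0 called and 5 higher in endometrium at an unadjusted p. The log2 ratio of CD14 was -2.08, 0.11, 0.51 and 0.13 in animals 1 to 4, with a mean of -0.33 (adjusted p = 0.782), and LYZ had none of its channels well above background. The part of other cells in the PAG ratios was not tested.

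Aspartic proteinases outside the family are enzymes of the stomach, the lysosome and membranes. Of 9 probes of the listed genes on the array 8 were tested and 0 called in limma, with a median log2 ratio of 0.44. At an unadjusted p 1 was higher and 1 lower in endometrium. The list did not hold LOC613791, a predicted gene annotated as similar to prochymosin. That probe was called, with a log2 ratio of 3.73 (adjusted p = 0.0263, limma). Cathepsin D, the lysosomal member, had log2 ratios of 1.07, 0.04, 1.38 and 0.06 in animals 1 to 4.

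The 5 probes whose level was most like that of the modern PAGs were named by Pearson's r with the mean of the 12 probes, over the 8 means of animal and tissue. They were HSPA1B, a heat shock protein, with r of 0.985, CSH1 with 0.985, LOC613791, a predicted gene similar to prochymosin, with 0.984, PRP6 with 0.980, and a transcript annotated as similar to ENPP5 with 0.974. Of these 5, CSH1, LOC613791 and PRP6 were called. The 8 means span both tissues, so that r also reflects the gap between tissues and not only likeness between animals. They also share arrays in pairs, and no test was applied to r.

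In the authors' value table, more of the modern PAG probes were called than in the background-corrected intensities. By those values, 9 of the 12 probes, of 8 genes, were called higher in endometrium, and 1.22% of all probes tested. The processed signal without quantile normalization also gave 9 of 12, and 0.955% of all probes. A fit of the 8 arrays with a term for the technical replicate and the animal as a random block gave 4 of 12 (PAG4, PAG5, PAG7 and PAG17), and 1.89% of all probes. PAG17 A_73_101490 had log2 values of 10.27, 10.65, 11.53 and 9.58 in endometrium and of 4.00, 4.12, 3.81 and 2.58 in blood, a log2 ratio of 6.88 (adjusted p = 0.00733). PAG3 had a log2 ratio of 6.17, PAG6 of 6.16, PAG15 of 5.68, PAG21 of 5.56 and PAG5 of 5.27. PAG17 A_73_101977, not called above, had a log2 ratio of 3.90 here and was called (adjusted p = 0.0138, limma). For all of these probes blood was not well above background, so that these values are differences from a background level and not measured folds. Of the probes above background in blood, PAG7 A_73_111071 had a log2 ratio of 4.63 and PAG4 of 5.19. PAG9, PAG18 and PAG7 A_73_102555 were not called in that table either, and animal 1 again had a blood value of 12.11 for the last, against 6.93 to 7.84 in the others. The background-corrected intensities carry an offset of 50 at every spot, and the processed signal behind the table does not. For all 12 tested probes, the ratio in each animal had the same sign by both sources of values.

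**Figure D4:**
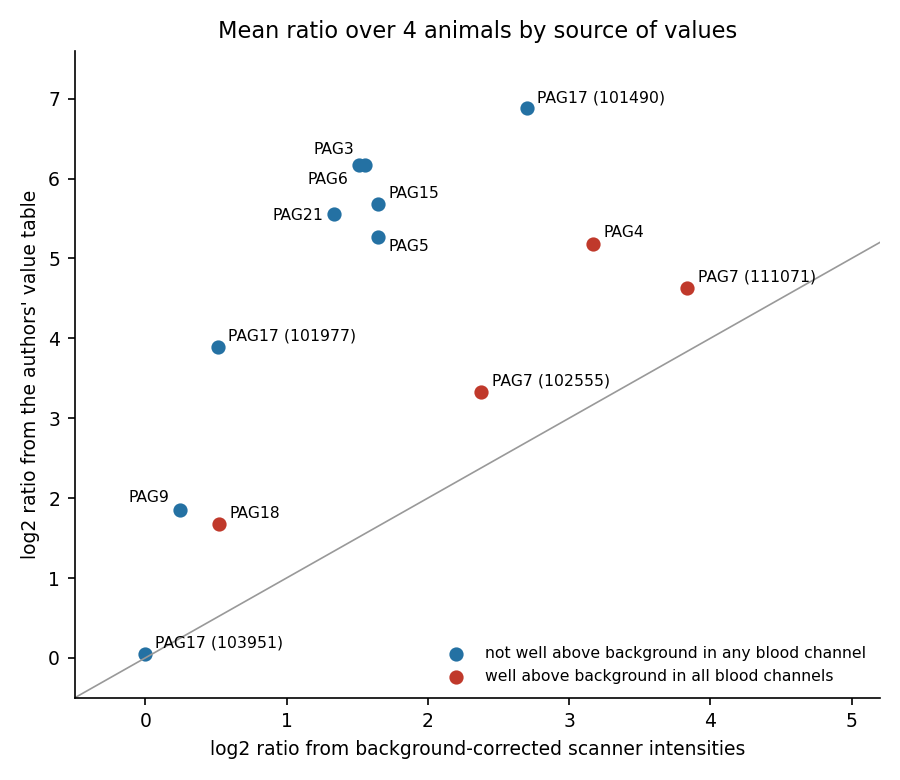
Mean log2 ratio of 4 animals from the background-corrected scanner intensities (x axis) against that from the authors' value table (y axis) for the 13 probes, coloured by whether blood was above background; the line marks equal values. PAG17 A_73_101490, not above background in blood, stands at 2.70 and 6.88, and PAG7 A_73_111071 at 3.84 and 4.63, nearer to the line.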

How the data were processed

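The authors amplified and labeled the RNA and scanned the arrays with Agilent's Feature Extraction, version 10.5.1.1 per the file headers and 9.5 in the submitters' processing notes. Each deposited scanner file holds 3 kinds of intensity per spot and dye: the median of the spot's pixels, that of the local background, and a processed intensity with background and dye corrected. The deposited value table holds log2 values with quantiles equalized over all channels. Its scale and direction were settled against the scanner files. For 100% of the spots, within 0.001 on the log2 scale and with the 2 spots of a probe in either order, a column equaled its labeled dye in the scan filed under the animal's other hybridization. The own file was equal for at most 0.714%. Each column had a median of 8.00.

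Median intensities were processed with limma 3.58.1 in R 4.3.3 (statmod 1.5.0, and version 1.17.8 of data.table), by normexp background correction with an offset of 50, loess within arrays and quantile normalization over channels. Control spots and outlier spots had no weight, and spots of a probe were averaged. Log2 ratios (endometrium minus blood) were averaged over the 2 arrays of an animal and tested against 0 over 4 animals with lmFit and eBayes, with Benjamini-Hochberg adjustment over 16654 probes. SE are moderated. Tissues are paired by the animal named in the labels. Departures from the tissue means correlated between the tissues of an animal with r of 0.62, 0.36, 0.21 and 0.46 over the probes of animals 1 to 4. Both tissues of an animal shared its arrays, so that this correlation cannot check the pairing. The number of arrays limits the precision. Alternatives changed the background correction, normalization, source of values, filter, pairing, technical replicate and dye terms, animals, test and threshold. Technical replicate here is the one under which a scan was filed.

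All probes of the 10 genes are reported. Genes of the lists were read by the brightest probe, counted, and named where called. PAG1B, PAG2, PAG10, PAG16, PAG19, PAG20, CD14, LYZ, SERPINA14 and cathepsin D were named besides, as were the 5 probes most like the members. The members and lists were chosen with earlier results of these data known. The flow cytometry and PCR of the study were not analysed here.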

Additional observations from a re-analysis of the deposited data

How the results depend on the processing

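The number of modern PAG probes called was 2 of 12 in the analysis reported and stayed within 1.5 times of it for 7 of the 20 alternatives. It was 9 with the processed signal after quantile normalization, with the authors' value table, with the processed signal as given and at an unadjusted p. It was 4 with 8 arrays, a technical replicate term and animal as a random block, 6 with a dye term, and 0 with the methods' analysis of variance, with the methods' adjusted p of at most 0.01 and with the files read as attached. Over all probes, 11 were called in the analysis reported. The count was 50 with no background correction, 224 with the processed signal after quantile normalization and with the value table, 171 with the processed signal as given, 5 with loess alone and with no filter, 44 with a filter of all 8 channels, 501 with a technical replicate term, 792 with a dye term, 5 in technical replicate 1 alone, 20 in technical replicate 2 alone, 1729 at an unadjusted p, and 0 with the analysis of variance, the methods' adjusted p and the files as attached. For the probes of the lists, 3 in the analysis reported, the counts in the order of no background correction, processed signal with quantiles, value table, processed signal as given, strict filter, technical replicate term, dye term, technical replicate 2 alone and unadjusted p were 11, 18, 18, 17, 10, 17, 18, 7 and 31. They were 0 with the analysis of variance, the methods' adjusted p and the files as attached. With any 1 of the animals left out, all 3 counts were 0. The cause of these differences was not tested.

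With no replicate block, so that the pairing of tissues within animals was ignored, 2 modern PAG probes, 4 of all probes and 1 probe of the lists were called, with an adjusted p of 0.0140 for PAG4 and 0.0232 for PAG7 A_73_111071. PAG17 A_73_101490 was called under 9 alternatives. Direction was the same for all 12 probes under every alternative but 1. With the scanner files read as attached, an alternative added after seeing the data, as was the processed signal as given, the log2 ratio was -0.51 for PAG3, -1.54 for PAG4, -0.38 for PAG5, -0.36 for PAG6, -0.67 for PAG7 A_73_102555, -1.90 for PAG7 A_73_111071, -0.21 for PAG9, -1.02 for PAG15, -1.12 for PAG17 A_73_101490, -0.36 for PAG17 A_73_101977, -0.17 for PAG18 and -0.45 for PAG21, because that reading turns the arrays of animals 1, 2 and 4. PAG9 and PAG17 A_73_101977 were not tested under the strict filter. Signals at background in blood limit 8 of the 12 probes to lower bounds.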
